A study of Ailuropoda melanoleuca with 25 samples.

Results

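The 61 gene models described here were expressed in giant panda fibroblasts, were still expressed late in the early phase of reprogramming, and were low once the next phase had begun. They were chosen by measured values, from 22924 gene models in all. The unit of the rule is CPM, the estimated count of a model per 1000000 counts of its library, averaged over the libraries of a group. Each model had to reach 10 CPM in both groups of primary fibroblasts, at day 8 and at day 24 of stage I. At day 8 of stage II it had to lie below 10 CPM. It also had to lie at least 8-fold below stage I day 24 at stage II day 8 and in both kinds of established pluripotent cells. Of the models, 6518 reached 10 CPM in all 4 earlier groups, 741 of these lay below 10 CPM at stage II day 8, 113 were also 8-fold lower there, and 61 met the whole rule.

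Fibroblasts are connective tissue cells that make extracellular matrix and hold a mesenchymal state, in which TGF-beta signalling is one of the sustaining inputs. When such cells are reprogrammed, genes of the starting cell are switched off, and the shutdown comes in waves rather than at once. Genes that outlast the early wave and are gone later are of use in telling how far a culture has left the fibroblast state. The deposited tables carry only assembly identifiers for the models, with no gene names beside them, so what each model does cannot be said here. For the same reason, the labelled cell types could not be checked against marker genes, and no sequence is shown.

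The libraries come from giant panda (Ailuropoda melanoleuca) cells in which episomal vectors, which do not integrate into the genome, were used for reprogramming. The 7 groups used by the rule hold 15 libraries, namely primary fibroblasts (PF) labelled LB and XR, cells at day 8 and at day 24 of stage I, cells at day 8 of stage II, and induced pluripotent stem cells (GPiPSC) labelled LB and XR. The 5 groups that the rule did not use hold 10 libraries. They are 2 day 16 groups, a control and one given A83-01, and 3 groups labelled BACL, namely BACL control, BACL LB GPiPSC and BACL-CHIR99021. A83-01 is an inhibitor of the type I receptors for TGF-beta, activin and nodal, and CHIR99021 inhibits the kinase GSK3, which raises Wnt/beta-catenin signalling. LB, XR and BACL are not spelled out in the labels, nor is the animal's age or the stage of the day 16 cells. The label BACL-CHIR99021 does not say whether CHIR99021 was added or left out. Differences from BACL control are therefore described by that label. Whether the stage I, stage II and day 16 cells, BACL control and BACL-CHIR99021 are LB or XR is not given either. Steps between PF, the stages and GPiPSC may therefore cross lines, and line and stage cannot be told apart in them. All libraries carry primary fibroblasts as their source, the GPiPSC included. Every group had 2 libraries except LB GPiPSC, which had 3. The labels do not describe replicates as separate cultures. The spread behind each p-value is therefore that of these libraries and may be technical.

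Total estimated counts ran from 8627983 to 14890260 per library, so that 3 counts correspond to between 0.201 and 0.348 CPM. Over the 61 models, replicates correlated least in LB GPiPSC (Pearson r of log2 CPM 0.748), LB PF (0.816) and stage I day 24 (0.850), and at 0.998 in control day 16. In LB GPiPSC, where most of the models are near 0, counting noise enters that value. In bulk RNA, fewer cells that express a model and less RNA per cell cannot be told apart, and this holds for every level below.

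**Figure D1:**
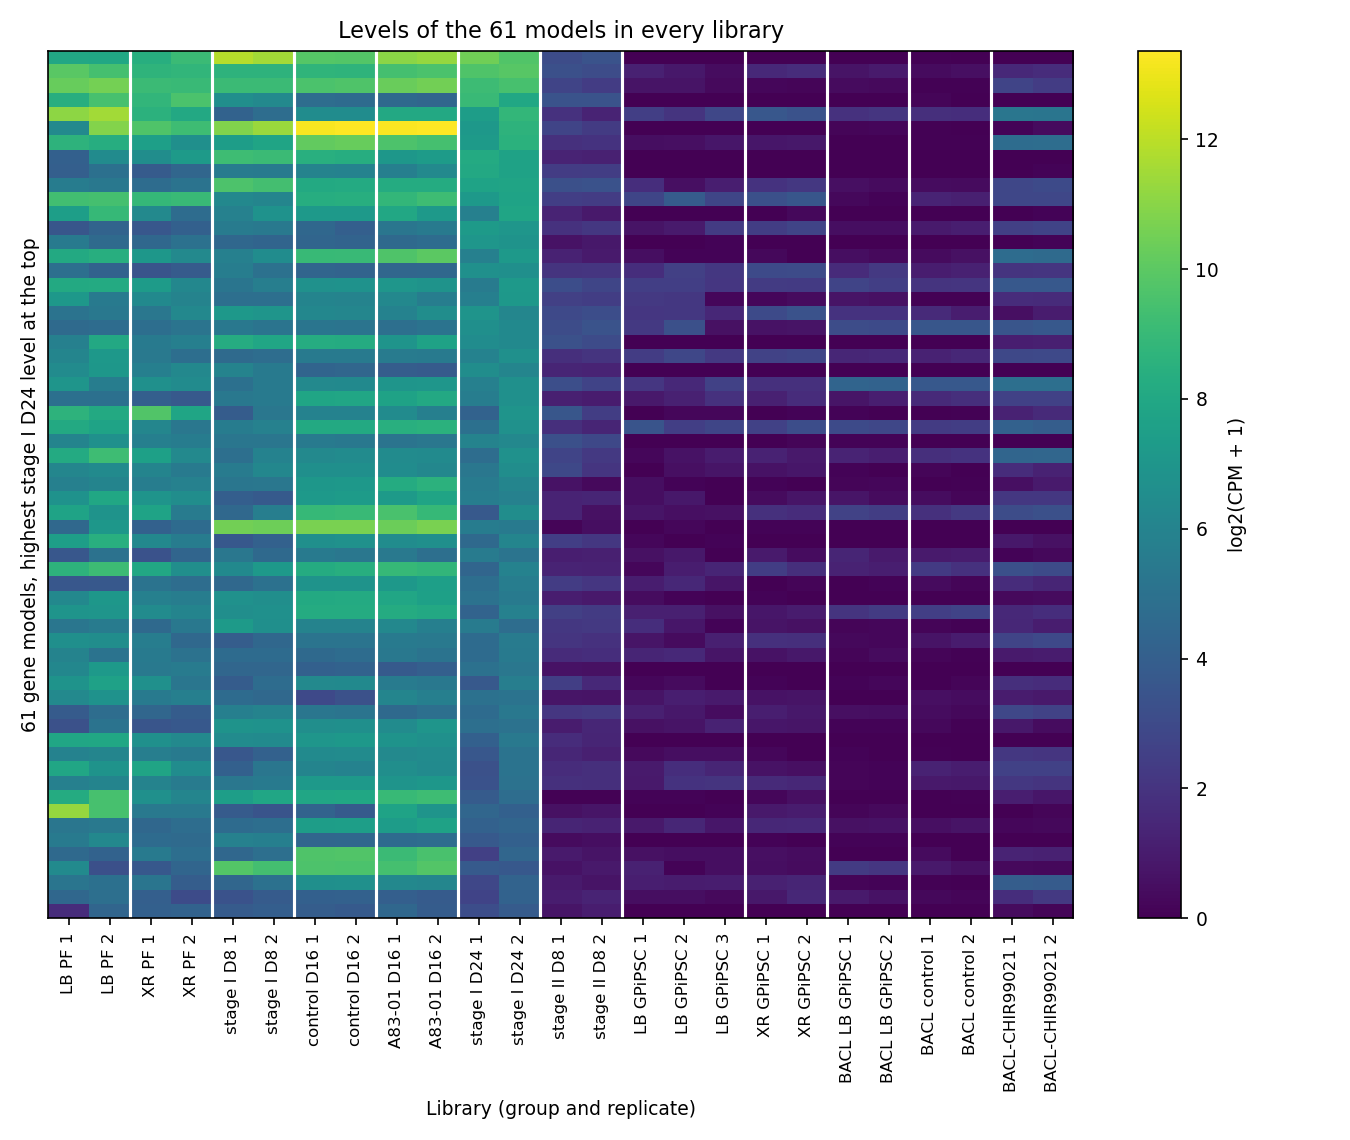
Log2(CPM + 1) of the 61 models (rows, ordered by their stage I day 24 level) in each of the 25 libraries (columns, by group and replicate, white lines between groups). Levels are high from PF to stage I day 24, the day 16 groups included, and low in the other groups. Among these, the median is 2.41 CPM at stage II day 8 and 1.81 CPM in BACL-CHIR99021.

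The models made up a visible part of the early libraries and nearly none of the late ones. In LB PF replicates 1 and 2 they held 1.39% and 1.69% of all counts, in those of XR PF 0.780% and 0.637%, then 1.32% and 1.28% at stage I day 8, and 0.673% and 0.812% at stage I day 24. At stage II day 8 they held 0.0210% and 0.0184%, and in the 5 GPiPSC libraries between 0.00640% and 0.00977%. These shares follow from the rule. In the libraries outside the rule the models held 2.27% and 2.36% of counts in control day 16, 2.53% and 2.75% in A83-01 day 16, between 0.00639% and 0.00737% in BACL LB GPiPSC and BACL control, and 0.0299% and 0.0294% in BACL-CHIR99021. A single model, evm.model.HIC_ASM_0.1539, weighed heavily on the day 16 shares and is named for that reason, after its values were seen. It stood at 9597 and 10189.9 CPM in control day 16 and at 78.2 and 1902 CPM in LB PF replicates 1 and 2. Without it the other 60 models held 1.31% and 1.34% of counts in control day 16 and 1.55% and 1.70% in A83-01 day 16.

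**Figure D2:**
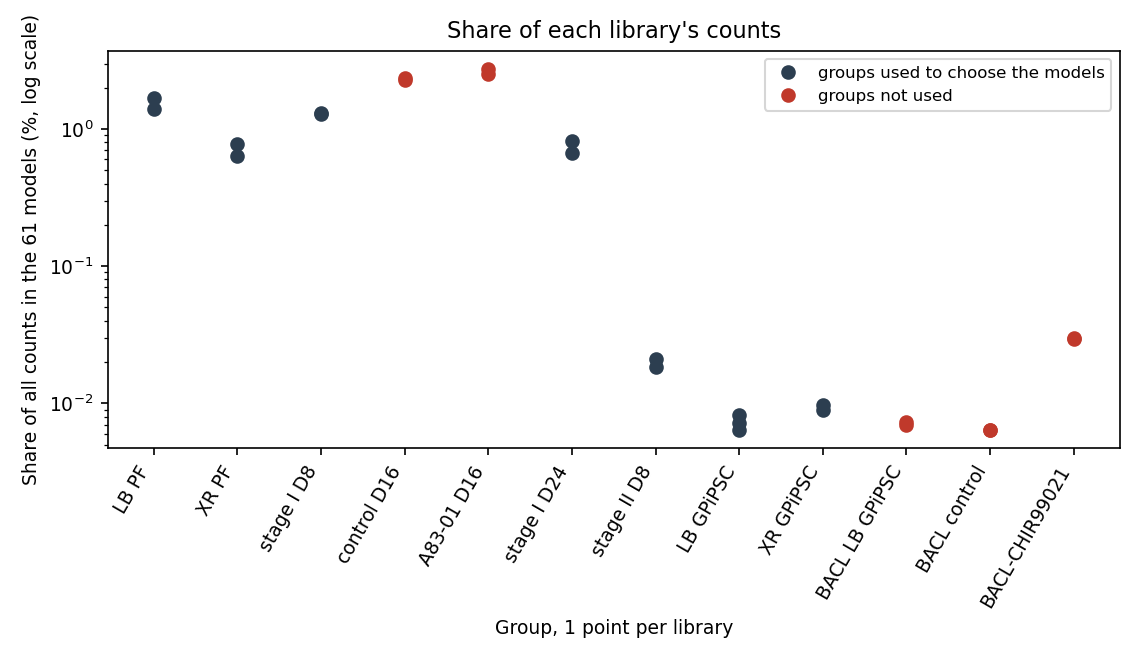
Share of each library's counts held by the 61 models (%, log scale), 1 point per library, by group. The 2 groups at day 16, not used to choose the models, lie between 2.27% and 2.75%, BACL LB GPiPSC and BACL control lie with the GPiPSC below 0.01%, and BACL-CHIR99021 lies near 0.03%.

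Levels differed widely among the models. The mean TPM (a level scaled for model length, which allows models to be compared) over the PF and stage I libraries ran from 3.87 to 2478, with a median of 46.1, against 30.2 over the 6518 models expressed in the same 4 groups. The highest by TPM were evm.model.HIC_ASM_0.774 (mean 2478 TPM) and evm.model.HIC_ASM_0.1423 (2087 TPM). The former had 259 and 252 CPM in the LB PF libraries, 331 and 550.2 in those of XR PF, 3819 and 2906 at stage I day 8, 1422 and 844 at stage I day 24, and 7.70 and 9.77 at stage II day 8. It had 0 counts in all 5 GPiPSC libraries. The latter stood at 56.0 and 267 CPM in LB PF, 44.5 and 52.7 in XR PF, 303 and 236 at stage I day 8, 89.6 and 78.8 at stage I day 24, 9.10 and 7.19 at stage II day 8, and 0 in the GPiPSC. Both were highest at stage I day 8 among the groups of the rule, although LB PF replicate 2 of the second model lay between its day 8 libraries. Over all 12 groups, 21 of the 61 models had their highest mean in LB PF, 2 in XR PF, 7 at stage I day 8, 11 in control day 16, 13 in A83-01 day 16 and 7 at stage I day 24.

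Between the fibroblasts, LB PF had the higher mean in 51 of the 61 models and XR PF in 10, with a median ratio of 1.66. Over the 6518 models expressed in the same groups, 3598 were higher in LB PF and the median ratio was 1.06. With TMM scaling, which allows for library composition, LB PF was higher in 46 of the 61 and the median ratios were 1.35 and 0.855. In 33 of the 61 both LB PF libraries lay above both XR PF libraries, and in 5 both lay below, where the 6518 models gave 1480 and 994. The widest ratios belonged to evm.model.HIC_ASM_3.1095, with LB PF at 2465 and 707 CPM and XR PF at 41.5 and 41.2, and to evm.model.HIC_ASM_3.1707_evm.model.HIC_ASM_3.1708, with 2203 and 2876 in the former and 386 and 262 in the latter. Their ratios were 38.4 and 7.84, and neither model's libraries overlapped. At the other end were evm.model.HIC_ASM_6.256, with LB PF at 11.2 and 11.8 CPM and XR PF at 32.9 and 26.3, and evm.model.HIC_ASM_1.969, with 16.2 and 86.7 in the former and 92.0 and 157 in the latter. The LB PF replicates of the last model differed more from each other than the higher one did from the nearer XR PF library. Both PF groups entered the rule, so these values are given without a test.

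Through stage I the models did not share 1 course. At day 8, 31 stood below both PF means, 13 between them and 17 above both. Of the 31 that stood lower, 27 had a higher mean at day 24 than at day 8, and of the 17 that stood above, 11 had a lower one. In all, 38 models were higher at day 24 than at day 8 and 23 lower, and in 23 and 22 of them the libraries of the groups did not overlap. Over the 6518 models expressed in these groups, 4294 were higher at day 24 and 2224 lower, without overlap in 2533 and 1305. The split depends on the scaling. With TMM it was 32 higher and 29 lower for the 61 models, and 2912 and 3606 for the 6518. On that scale 26 models stood below both PF means at day 8, of which 22 were higher at day 24, and 24 stood above both, of which 17 were lower at day 24. Of the 6518 models on that scale, 2295 stood below both, of which 1382 were higher at day 24. Above both were 3093, of which 2071 were lower at day 24. Both steps use the day 8 mean, so sorting the models by it itself favours a return.

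The largest ratios of day 24 to day 8 were 14.5 for evm.model.HIC_ASM_3.1707_evm.model.HIC_ASM_3.1708 and 6.07 for evm.model.HIC_ASM_2.502. The former had 17.4 and 26.2 CPM at day 8 and 175 and 457 at day 24, and the latter 21.3 and 18.6 at day 8 and 127 and 115 at day 24. So the first of these models was lower at day 8 than in either PF group and then higher again, while the second stood near its PF level of 21.1 to 43.8 CPM at day 8 and above it at day 24. The smallest ratios were 0.0157 for evm.model.HIC_ASM_8.236, at 885 and 665 CPM at day 8 and 12.8 and 11.6 at day 24, and 0.0325 for evm.model.HIC_ASM_13.1440, at 1445 and 1386 at day 8 and 47.1 and 44.8 at day 24. In the PF libraries these 2 models stood between 8.58 and 134 CPM, so both stood higher at day 8 than in PF or at day 24.

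The step into stage II is the one that chose the models, and its size is a description. The mean at stage I day 24 was a median of 26.1 times that at stage II day 8, and ranged from the limit of 8 times up to 275 times. In all 61 models both stage I day 24 libraries lay above both stage II day 8 libraries, which the rule nearly fixes. The same held in 1979 of the 6518 models expressed in PF and stage I. By library, 55 models reached 10 CPM in stage I day 24 replicate 1 and all 61 in replicate 2, while 1 model was at 10 CPM or more in stage II day 8 replicate 1 and none in replicate 2. Among models with over 3 counts in each stage II library, the largest ratios were those of evm.model.HIC_ASM_2.502 (175 times, with 0.592 and 0.791 CPM at stage II day 8) and evm.model.HIC_ASM_1.969 (174 times, from 288 and 206 CPM to 1.48 and 1.37).

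**Figure D3:**
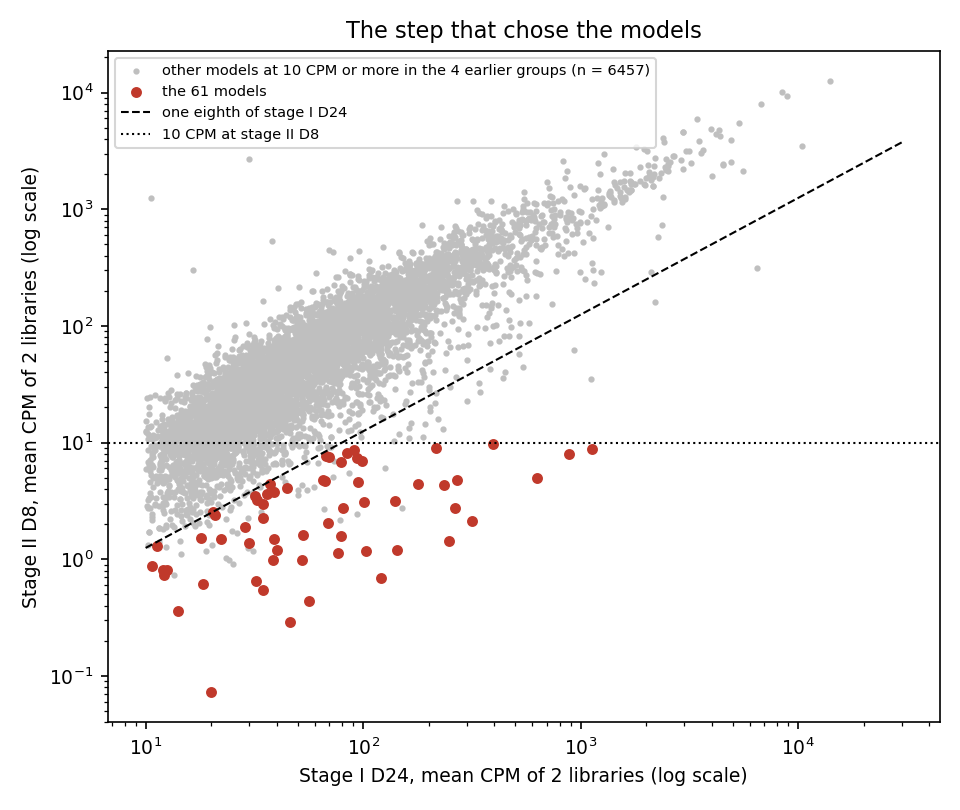
Mean CPM at stage II day 8 against stage I day 24 (both log scales, 2 libraries each) for the 61 models (red) and the other models at 10 CPM or more in the 4 earlier groups (grey). The red points lie below the dotted line at 10 CPM and on or below the dashed line 8-fold under stage I day 24, as the rule requires. Grey points in that corner were left out by their GPiPSC levels.

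Near the thresholds the choice turns on small differences. The member nearest the 10 CPM limit at stage II day 8 stood at 9.74 CPM, and the nearest model outside at 11.8. Among the members, the one nearest the 8-fold limit at stage II day 8 stood at 2.55 CPM against 20.4 at stage I day 24, and the nearest model outside at 9.20 against 69.6. The lowest XR PF mean inside was 11.2 CPM and the nearest outside 9.96. The lowest stage I day 24 mean inside was 10.7 CPM and the nearest outside 9.49. As many as 66 models failed only the 8-fold limit at stage II day 8. With TMM scaling, which the rule does not use, it gave 64 models, 46 of them among the 61. Without stage I day 24 replicate 2 the rule gave 41 models, all of them members, and without replicate 1 it gave 80.

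After stage II day 8 most of the models were lower still. Their median was 2.41 CPM at stage II day 8, 0.560 in LB GPiPSC and 0.586 in XR GPiPSC. The mean was lower in LB GPiPSC than at stage II day 8 in 53 models and lower in XR GPiPSC in 47 (58 and 52 with TMM scaling). Over the 6518 models these counts were 3069 and 3273, and 4656 and 4648 with TMM. Of the 61, 13 and 12 models had 0 counts in every LB and every XR GPiPSC library. Only 1 model reached a mean of 10 CPM in a GPiPSC group, evm.model.HIC_ASM_3.1707_evm.model.HIC_ASM_3.1708, with 11.2 and 9.38 CPM in XR GPiPSC and 4.48, 2.99 and 6.28 in LB GPiPSC. That model was higher in all 5 GPiPSC libraries than in the stage II day 8 libraries, where it had 2.74 and 1.51 CPM.

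The day 16 control libraries were not used by the rule, and there 60 of the 61 models reached 10 CPM. Over the 6518 models expressed in PF and stage I the share was 98.1%. The median of the 61 in control day 16 was 99.4 CPM, against 43.3 at stage I day 8 and 56.3 at stage I day 24, and over the 6518 models the medians were 52.1, 43.7 and 53.7. In 34 models control day 16 was above both stage I means, in 16 between them and in 11 below both. Of the members 55.7% were thus above both stage I means, and of the 6518 models 37.3%. With TMM scaling these shares were 47.5% and 28.8%. These are values without a test, since the stage I groups entered the rule.

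At the extremes, control day 16 was far from stage I day 24. The model evm.model.HIC_ASM_13.2173 stood at 825 and 862 CPM in control day 16, against 4.74 and 20.4 at stage I day 24, 21.3 and 28.9 at stage I day 8 and 17.2 to 43.2 in the PF libraries. It was thus high at day 16 alone among these groups, apart from A83-01 day 16, where it had 549.6 and 739 CPM. The model evm.model.HIC_ASM_8.236 kept near its stage I day 8 level, with 782 and 771 CPM, and was 63.6 times its stage I day 24 mean. In the other direction, evm.model.HIC_ASM_7.163 had 26.0 and 24.3 CPM in control day 16, against 327 to 773 in the PF libraries, 97.2 and 75.8 at stage I day 8 and 535 and 252 at stage I day 24. Likewise evm.model.HIC_ASM_15.1106 had 20.8 and 15.2 CPM in control day 16 and 154 and 127 at stage I day 24. Both were below every stage I library at day 16.

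Whether inhibition of TGF-beta receptors moved these models was tested between A83-01 day 16 and control day 16, 2 groups that the rule did not use. Of the 61 models 3 rose and none fell with A83-01, at an adjusted p under 0.05 in edgeR's quasi-likelihood test over 17225 models. Over all models tested, 4.19% were called higher and 2.04% lower, so the members' share of 3 in 61, or 4.92%, lies near that of all models. Of the 6518 models expressed in PF and stage I, 78, or 1.2%, were called higher and 136, or 2.09%, lower. Whether the 61 differ from the 6518 was not tested. At an unadjusted p under 0.05 there were 9 higher and 2 lower, against 1750 and 1008 over all models tested. DESeq2 called 4 higher and 1 lower, and 1397 models in all. The median log2 fold change of the 61 was -0.06, against 0.04 over all models tested.

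The model evm.model.HIC_ASM_3.1095 had 17.9 and 12.9 CPM in control day 16 and 216 and 121 with A83-01, a log2 fold change of 3.28 ± 0.48 (SE; edgeR adjusted p = 0.000392). The model evm.model.HIC_ASM_3.2389 had 6.76 and 8.81 CPM in control day 16 and 66.4 and 53.2 with A83-01 (2.79 ± 0.31 SE; edgeR adjusted p = 2.54e-05). The third, evm.model.HIC_ASM_3.1707_evm.model.HIC_ASM_3.1708, had 88.8 and 90.2 CPM in control day 16 and 270.1 and 262 with A83-01 (1.43 ± 0.30 SE; edgeR adjusted p = 0.00562). In all 3 the libraries of the groups did not overlap. With A83-01 the first model lay between its XR PF and LB PF levels. Without control day 16 replicate 1 or 2 the count was 2, since the third model lost its call (edgeR adjusted p = 0.0795 and 0.0791). With only these 4 libraries in the fit, 7 members were higher and 8 lower, while calls over all models went from 1072 to 2233.

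**Figure D4:**
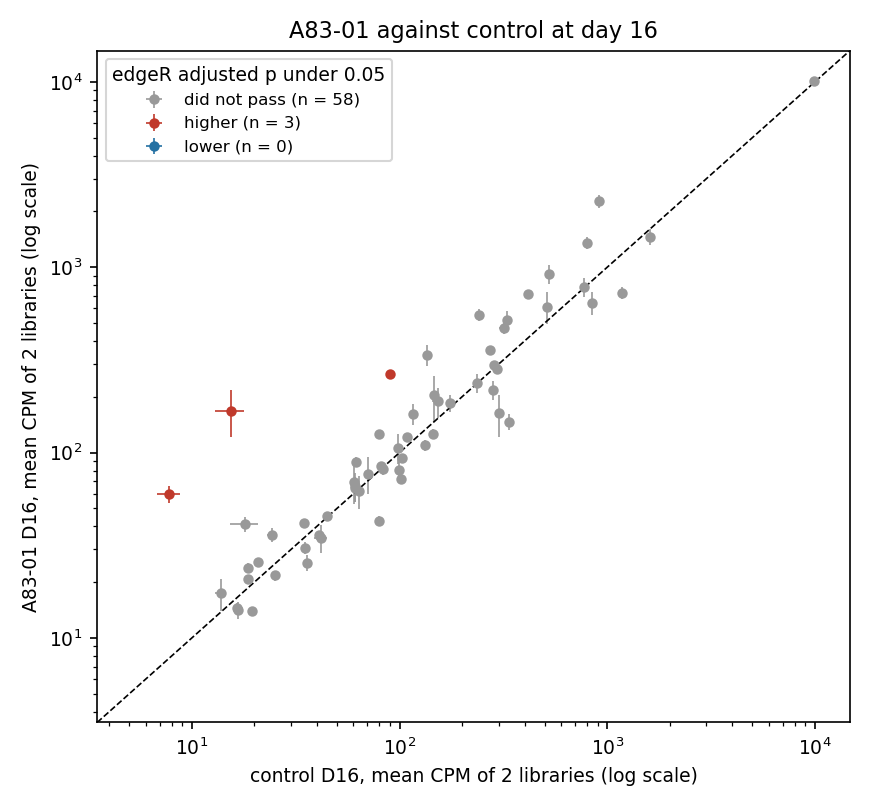
Mean CPM of each of the 61 models in A83-01 day 16 against control day 16 (log scales), with bars from the lower to the higher of 2 libraries and a dashed line of equal levels. Most points follow the line, and the 3 models that rose (red) lie above it at low to middle control levels.

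Sets built by like rules gave other counts in this comparison. Among 147 models kept through stage II (10 CPM or more in both PF, at stage I days 8 and 24 and at stage II day 8, then below 10 CPM and at least 8-fold lower in both GPiPSC), 34 fell and none rose. Their median log2 fold change was -0.65. At an unadjusted p under 0.05, 64 of these were lower and 1 was higher. Among 35 models silenced by stage I day 8 (10 CPM or more in both PF, below 10 at day 8, and at least 8-fold below both PF at day 8 and in both GPiPSC), 5 rose and none fell. Their median was -0.01, with 8 higher and 3 lower at an unadjusted p under 0.05. The 783 models, members included, that reached 10 CPM in PF and stage I and were below 10 CPM in BACL control had 1.02% higher and 8.56% lower. Whether the 61 models differ from these sets was not tested.

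That the models are low in pluripotent cells came from the rule. Their levels were also compared in libraries it did not use, BACL LB GPiPSC against control day 16. By label the former are LB GPiPSC too, in which the rule required low levels, so a fall was largely built in. All 61 models fell, with no overlap between the libraries, and none rose, also at an unadjusted p under 0.05 and by DESeq2. A lack of overlap was common in this comparison. Of the 6518 models expressed in PF and stage I, 2712 were lower and 3545 higher without overlap. In edgeR 33.4% of all models tested were lower and 25.8% higher. Of the 783 models expressed in PF and stage I and below 10 CPM in BACL control, 95.5% were lower, and of the 147 kept models 146 were. These sets too were chosen by low levels, the 783 in BACL control and the 147 in both GPiPSC, which favours a fall. In BACL LB GPiPSC 18 of the 61 had 0 counts in both libraries and 11 had 1 to 3 counts over both. With 0 counts replaced by a floor of 3 counts over the group, the median model was 312 times lower than in control day 16. The labels do not say whether the day 16 cells and the BACL LB cells are of the same line, so line, culture and stage cannot be told apart in this comparison.

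The 2 largest fitted changes, both of models at 0 counts in BACL LB GPiPSC, were in evm.model.HIC_ASM_13.1440, from 1606 and 1616 CPM in control day 16 to 0 counts in both BACL LB GPiPSC libraries, and evm.model.HIC_ASM_8.1079, from 1134 and 1230.3 CPM to 0 counts in both. They were at least 13369-fold and 9808-fold lower, by the floor of 3 counts over the group (edgeR adjusted p = 1.05e-08 and 3.45e-13). By counts the largest ratio was that of evm.model.HIC_ASM_0.1539, with 232696 counts over both control day 16 libraries and 4 over both BACL LB GPiPSC libraries. It was 61574-fold lower (95% interval 24048 to 225990, exact and for counting error only; edgeR adjusted p = 1.38e-07). The members with the highest mean over the 6 BACL libraries were evm.model.HIC_ASM_4.990 and evm.model.HIC_ASM_3.1707_evm.model.HIC_ASM_3.1708. The former had 78.3 and 81.2 CPM in control day 16 and still 18.5 and 17.7 in BACL LB GPiPSC and 11.8 and 11.6 in BACL control, against 1.86 to 5.10 in LB GPiPSC and 2.65 and 2.67 in XR GPiPSC. The latter had 2.78 and 3.18 CPM in BACL LB GPiPSC and 2.47 and 2.42 in BACL control. So the first of these was higher in both groups than in any GPiPSC library of the rule, and the second was not.

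Many of the models were higher in BACL-CHIR99021. Between BACL-CHIR99021 and BACL control, neither of which the rule used, 34 of the 61 models rose and 1 fell (edgeR's quasi-likelihood test, adjusted p under 0.05), where 11.7% of all models tested were higher and 4.43% lower. Of the 783 models expressed in PF and stage I and below 10 CPM in BACL control, 337, or 43.0%, rose, and of the 59 members below 10 CPM there 33, or 55.9%, did. The 783 were chosen by a low level in BACL control, which itself favours a rise, and were not matched to the members' levels. The members too were near 0 in BACL control, with a median of 0.145 CPM and 15 at 0 counts in both libraries. From such levels a rise can be called far more readily than a fall, so the members' split is limited in the same way. Of the 147 kept models 74 rose and 2 fell, and of the 35 silenced ones 9 rose and 2 fell. Whether the 61 differ from these sets was not tested.

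The rise was in small amounts of RNA. The 34 models stood at a median of 3.43 CPM in BACL-CHIR99021 against 0.200 in BACL control, and 8 of them reached 10 CPM. Their BACL-CHIR99021 level was a median of 2.93% of that in control day 16. All 61 models were below control day 16 in both BACL-CHIR99021 libraries, as were 2406 of the 6518 models expressed in PF and stage I. Of the 61, 27 were above and 34 below their stage II day 8 mean, and with TMM scaling 17 were above and 44 below. Of the 6518 models, 3074 were below on CPM and 4548 with TMM. The fitted median log2 fold change of the 61 was 2.06, a value that takes in models near 0 in both groups. With the 13 models at or under 3 counts on both sides left out and 0 counts set to a floor of 3, the median ratio over the other 48 was 5.88, or 2.56 on the log2 scale. Without BACL control replicate 1 the test called 20 members higher and without replicate 2 it called 22, while calls over all models went from 2773 to 1319 and 1332. On log2(TPM + 1), which compresses low levels, 15 were higher. With only the libraries compared in the fit, 36 were higher and 3 lower, while calls over all models went from 2773 to 10609.

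**Figure D5:**
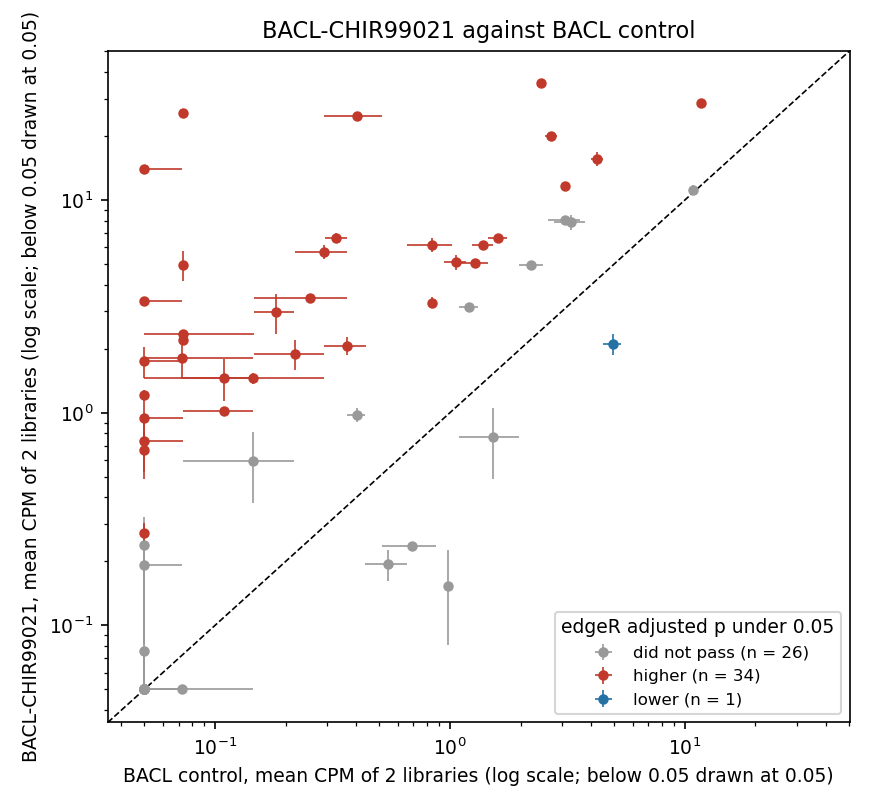
Mean CPM of each of the 61 models in BACL-CHIR99021 against BACL control (log scales, levels below 0.05 drawn at 0.05), with bars from the lower to the higher of 2 libraries and a dashed line of equal levels. The 34 models that rose (red) lie above the line, mostly below 10 CPM, and 1 model fell (blue).

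The largest changes between BACL-CHIR99021 and BACL control were in evm.model.HIC_ASM_8.1079 and evm.model.HIC_ASM_5.1110. The former had 0.0727 and 0.0732 CPM in BACL control, 1 count in each library, and 25.3 and 26.1 CPM in BACL-CHIR99021, a ratio of 353 (95% interval 97.2 to 2917, exact and for counting error only; edgeR adjusted p = 3.42e-09). The latter had 0.0727 and 0 CPM in BACL control and 14.6 and 13.4 in BACL-CHIR99021, a ratio of 383 (68.3 to 15173; edgeR adjusted p = 7.71e-08). In control day 16 these models had 1134 and 1230.3, and 101 and 103 CPM. In BACL-CHIR99021, evm.model.HIC_ASM_3.1707_evm.model.HIC_ASM_3.1708 was the highest of the 61, with 36.3 and 35.1 CPM against 2.47 and 2.42 in BACL control, a log2 fold change of 3.73 ± 0.35 (SE; edgeR adjusted p = 6.00e-07). It rose in both the A83-01 and the CHIR99021 comparison. They share no library, but both came from 1 fit with a pooled spread, and the A83-01 call was not kept under every alternative. In both comparisons this model was named outside the fixed criteria.

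Other members were at 0 in BACL-CHIR99021. The model evm.model.HIC_ASM_0.774, the highest by TPM before stage II, had 1 count over both BACL control libraries and 0 in both BACL-CHIR99021 libraries. The models evm.model.HIC_ASM_1.969 and evm.model.HIC_ASM_13.1440 had 0 counts in all 4. A count of 0 allows up to 0.244 and 0.227 CPM in these libraries. The 1 model that fell was evm.model.HIC_ASM_20.132, from 4.51 and 5.35 CPM in BACL control to 1.87 and 2.34 (log2 fold change -1.35 ± 0.35 SE; edgeR adjusted p = 0.0113), named because the count is 1. It lost the call without BACL control replicate 2 (edgeR adjusted p = 0.0977) and without BACL-CHIR99021 replicate 1 (0.129) or 2 (0.0534).

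The median coding length of the 61 models was 1287 bases (range 222 to 8970), against 1350 for the 6518 models expressed in PF and stage I and 1017 for all models. All 61 lie on scaffolds named HIC_ASM, on 17 of 21. Scaffolds HIC_ASM_1 and HIC_ASM_3 carried 9 each, or 14.8% of the members, where they carry 5.89% and 10.5% of the 6518 models. HIC_ASM_14, 17, 18 and 19 carried none, and they carry only 3.90%, 2.21%, 0.767% and 1.03% of the 6518 models.

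In 4 places members lay within 10 model numbers of each other, and 2 of these pairs were direct neighbours. They are named for their position, after their values were seen. The models evm.model.HIC_ASM_15.562 and evm.model.HIC_ASM_15.563 had coding lengths of 2241 and 2088 bases and a Pearson r of 0.990 between their log2(CPM + 1) values over the 25 libraries. The pair evm.model.HIC_ASM_7.56 and evm.model.HIC_ASM_7.57, with 786 and 513 bases, had an r of 0.987 and 0 counts in every GPiPSC and BACL library. These correlations carry the rule's own difference between early and late groups. How kallisto divided reads between models of like sequence cannot be read from the tables, and such sharing between neighbours was not tested.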

How the data were processed

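RNA-seq libraries of 25 samples in 12 groups were used, grouped by sample title. Per the labels' protocols, total RNA from a spin-column kit went into NEBNext Ultra libraries. Quantification was by kallisto, per the submitters' processing notes, and which release, index and assembly it ran with is not stated there. The authors deposited, per the file headers, an estimated count, a TPM value and a length for each of 22924 models. Estimated counts were rounded for the tests. No identifier (0 of 22924) occurred in the RefSeq table at hand.

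The members, sets and comparisons were chosen with earlier results of these data known. CPM is a model's estimated count per 1000000 counts of its library, without further scaling. All libraries entered 1 edgeR 4.0.16 fit in R 4.3.3 (12 groups, 13 residual degrees of freedom, filterByExpr leaving 17225 models with all 61 members, TMM, robust quasi-likelihood F tests, Benjamini-Hochberg adjustment over all models). The spread is pooled over groups. The edgeR step was tested on simulated data. Only the 3 comparisons between groups outside the rule were tested. Intervals and floors (3 counts) cover counting error only.

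Members were named by fixed criteria, at most 2 per direction: highest TPM, largest called changes with 10 CPM or more on the higher side and no overlap, largest ratios of day 24 to day 8, LB PF to XR PF, control day 16 to day 24 and day 24 to stage II, and highest BACL mean. Some were named outside these criteria, among them evm.model.HIC_ASM_3.1707_evm.model.HIC_ASM_3.1708 in the A83-01 and CHIR99021 comparisons. Alternatives were RLE, DESeq2 1.42.0, no filter, fewer libraries, a replicate block, limma-trend (limma 3.58.1) on log2(TPM + 1) and log2(TPM + 0.1), glmTreat, other limits of the rule, and each library left out.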

Additional observations from a re-analysis of the deposited data

How the results depend on the processing

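For A83-01 against control day 16, edgeR called 0 members lower. The count was 1 with RLE scaling, 1 with limma on log2(TPM + 1), 1 with DESeq2 and 8 with only the libraries compared, where 7 were called higher in place of 3. Leaving out 1 library gave 2 to 3 higher and 0 lower. For BACL-CHIR99021 the 1 member called lower became 3 with only the libraries compared, 2 with DESeq2, and 0 with limma on log2(TPM + 1) and with glmTreat against 2-fold. With only the libraries compared 36 members were called higher, while calls over all models went from 2773 to 10609. Leaving out 1 library gave 0 to 1 lower and 20 to 27 higher, and limma on log2(TPM + 1) gave 15 higher in place of 34. On that scale the median of all models was 0.15 and that of the members 0.54. In BACL LB GPiPSC all 61 members were lower under every alternative run. The rule itself gave 123 models with a 4-fold limit and 31 with a 16-fold limit, 55 on TPM (35 of them members), and 41 to 80 with 1 library left out. The cause of these shifts was not tested. Where leaving out a library left 1 in a group, its spread was taken from the remaining groups. Of the single-model alternatives 97 kept their direction and call and 11 kept the direction but lost the call. Of these 11, 5 were for evm.model.HIC_ASM_3.1707_evm.model.HIC_ASM_3.1708 with A83-01 and 6 for evm.model.HIC_ASM_20.132 in BACL-CHIR99021. Counts on TMM-scaled CPM, given beside the CPM counts, were added after the data had been seen.

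Replicates 1 and 2 share only a number. Deviations of same-numbered libraries correlated at -0.0045, -0.015 and 0.0096 in the 3 comparisons. With the replicate block 4 members were higher and 0 lower with A83-01, and 61 were lower in BACL LB GPiPSC. In BACL-CHIR99021, 35 were then higher and 1 lower. Levels near the 3-count floor limit what can be said of members in BACL libraries.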

Other observations

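The model evm.model.HIC_ASM_8.236 went against most members in the BACL libraries, and is described after its values were seen. It had 4.02 and 3.35 CPM in BACL LB GPiPSC, 0.872 and 0.513 in BACL control and 0.244 and 0.227 in BACL-CHIR99021, against 1.38, 0.0807 and 0.425 in LB GPiPSC. Over the 61 models, 47 had a higher mean in BACL-CHIR99021 than in BACL control and 7 a lower one (46 and 8 with TMM scaling), and over the 6518 models expressed in PF and stage I, 3632 and 2865 (3012 and 3485 with TMM). Between BACL LB GPiPSC and LB GPiPSC, 17 had a higher mean in the former and 34 a lower one (19 and 32 with TMM scaling). Over the 6518 models, 3009 were higher and 3490 lower, and 3573 and 2926 with TMM.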
